A study of Mus musculus with 19 samples.

Results

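Small RNA of the mouse hippocampus after ketamine was compared with small RNA of the hippocampus after lithium. The members were the arrays titled ketamine, replicates 1 to 3, and those titled lithium, replicates 1 to 4, which made 7 of the 19 arrays of the series. By its title the series sought shared miRNA targets of GSK3, the kinase glycogen synthase kinase 3. Every array carries right hippocampus from male C57BL/6 adults.

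MicroRNAs are short RNAs that bind complementary sites in messenger RNAs and lower their stability or translation. Many are abundant in neurons and act on synapses and plasticity. Ketamine is an NMDA receptor antagonist with a rapid antidepressant action, and lithium is a mood stabiliser that inhibits GSK3 directly. Ketamine is known to bring about an inhibitory phosphorylation of GSK3 in mouse hippocampus.

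Ketamine mice received 10 mg/kg into the peritoneum, 24 h before collection (n = 3). Lithium mice ate lithium chow over 4 weeks (n = 4); its strength is 0.2% by the samples' own labels but 2% by the treatment protocol. The other groups enter as levels or through the shared estimate of spread, and were given into the nose every other day over 3 days: L803mts, a peptide inhibitor of GSK3 (n = 4), siGSK3b, a small interfering RNA against GSK3 beta (n = 4), and vehicle, the control (n = 4). Ketamine and lithium thus differed in route and duration as well as in agent, and no injected or chow-fed control is among the arrays analysed here. Samples of a group are numbered, but nothing says that they were separate mice, so each p-value rests on a spread between samples that may be technical.

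All 3 ketamine arrays shared a slide, and all 4 lithium arrays shared another. The agent and the slide cannot be told apart in any value below. Median foreground intensity per array was 162 to 187 in ketamine, 167 to 190 in lithium and 146 to 172 in control, over median local backgrounds of 103 to 109 in ketamine, 107 to 118 in lithium and 90 to 101 in control. Between 3289 and 3367 probes were detected per ketamine array and between 3239 and 3368 per lithium array. Ketamine replicate 1 had 88 spots marked bad, all in its print block 1, while other arrays had at most 2. Probes are named by the array maker's codes, because no file used here pairs a code with a miRNA. The label of hippocampus could for that reason not be checked against neuronal miRNAs, and no sequence can be given. Levels below are log2 intensities after background correction and quantile normalization, and differences are ketamine minus lithium in log2 units.

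The arrays of both groups were alike over most probes. Array pairs correlated across probes at 0.991 to 0.997 between ketamine and lithium (12 pairs), at 0.995 to 0.997 within ketamine (3 pairs) and at 0.995 to 0.997 within lithium (6 pairs). The median absolute difference was 0.070 log2 units over the 3421 probes tested, and the median SE was 0.085. A probe's SD over replicate arrays had a median of 0.095 in ketamine and 0.10 in lithium.

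In ketamine hippocampus 20 of the 3421 probes differed from lithium at an adjusted p under 0.05, which is 0.585% of those tested. Of these, 17 fell in ketamine relative to lithium (0.497%) and 3 rose (0.0877%). With median scaling of the arrays the split was 2 lower and 0 higher. The falls ran from -0.79 to -0.25 log2 units with a median of -0.57, so that ketamine levels were 58.0% to 84.1% of lithium levels. The rises were 0.51 to 0.57 log2 units. An unadjusted p under 0.05 was reached by 339 probes, or 9.91%, with 201 of them lower (5.88%) and 138 higher (4.03%) in ketamine. All 20 called probes had ketamine arrays that did not overlap the lithium arrays, as had 232 probes on the lower side (6.78%) and 145 on the higher side (4.24%) among all tested.

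**Figure D1:**
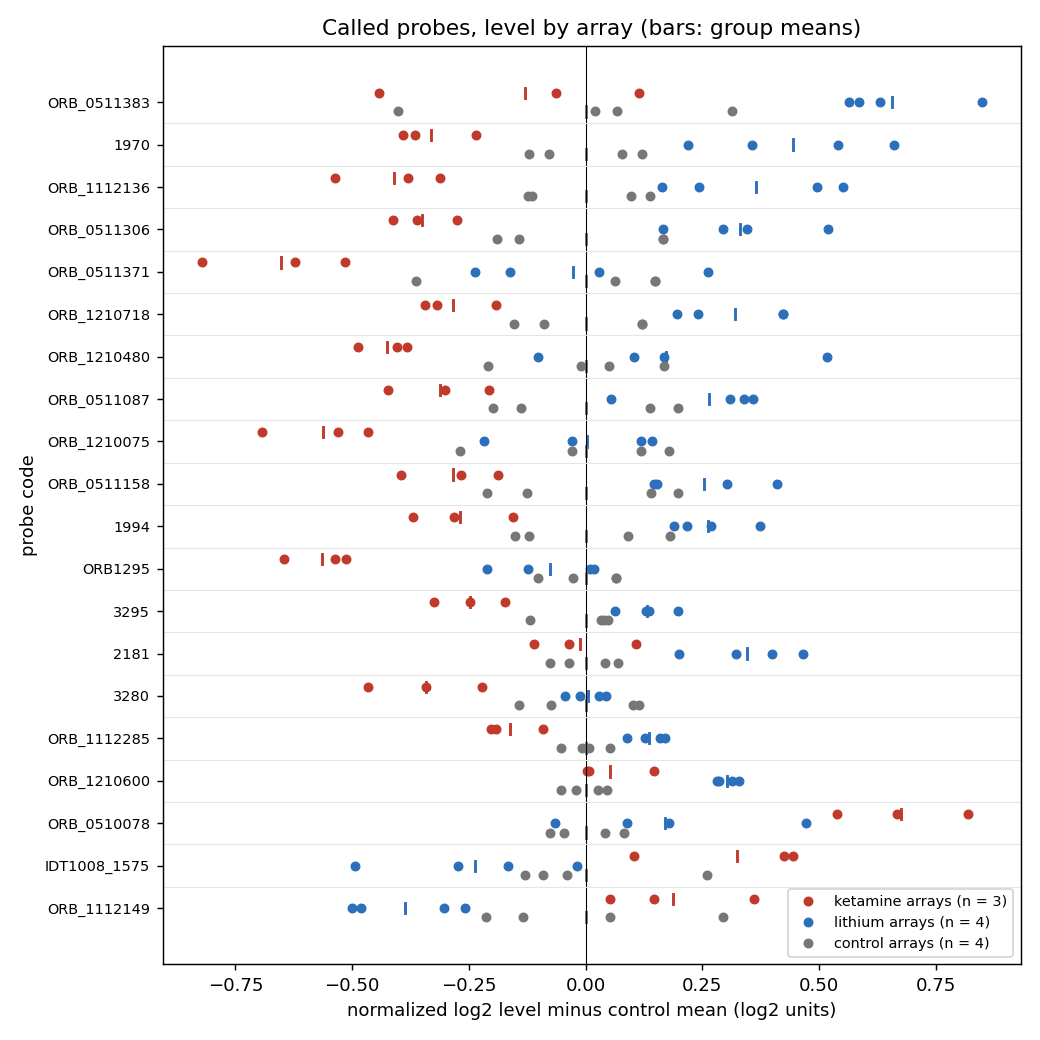
Level of the 20 called probes on each ketamine (n = 3), lithium (n = 4) and control (n = 4) array, as normalized log2 intensity minus the control mean of that probe on the x axis, with a row per probe and vertical bars at group means. Ketamine points lie left of all lithium points in the 17 probes that fell and right of them in the 3 that rose.

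Probes ORB_1112136 and ORB_0511306 had the smallest adjusted p-values. ORB_1112136 had 11.56, 11.49 and 11.34 on the ketamine arrays, against 12.37, 12.04, 12.43 and 12.12 on the lithium arrays. Each ketamine array lay below each lithium array. The control arrays, at 12.01, 11.97, 11.75 and 11.76, lay between them without overlapping either. The difference was -0.77 (SE 0.11, adjusted p = 0.0111). ORB_0511306, a brighter probe, had 13.40, 13.31 and 13.26 in ketamine, against 13.97, 13.84, 14.19 and 14.02 in lithium. Its difference was -0.68 (SE 0.10, adjusted p = 0.0111). Control arrays ran from 13.48 to 13.84, above all ketamine arrays, with the highest of them level with the lowest lithium array at 13.84. Both calls were lost without ketamine replicate 2 (adjusted p = 0.0856 for each) and without lithium replicate 3 (0.0523 for each), and held in the other 5 fits that left out an array of either group.

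ORB_1210600 showed the smallest of the called falls and the smallest SE among the called probes. That SE draws on the spread in all 5 groups. It measured 8.05, 8.04 and 8.19 in ketamine, against 8.32, 8.35, 8.37 and 8.32 in lithium, a difference of -0.25 (SE 0.04, adjusted p = 0.0160). Control arrays lay at 7.99 to 8.09, so that ketamine overlapped control and lithium lay above both. The call was lost without ketamine replicate 1 (adjusted p = 0.128), ketamine replicate 2 (0.0856) or lithium replicate 3 (0.0572).

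Probe 1970 had 10.96, 11.09 and 10.93 in ketamine, against 11.86, 11.68, 11.98 and 11.54 in lithium. Control arrays again lay between, from 11.20 to 11.44. The difference of -0.77 (SE 0.14, adjusted p = 0.0386) kept its call only without lithium replicate 2 (adjusted p = 0.0456) or 4 (0.0195), out of the 7 fits that left out an array of either group, and stood at 0.0739 to 0.146 in the other 5. ORB_0511383 had the largest fall, with 9.81, 10.36 and 10.18 in ketamine, against 10.81, 10.88, 11.10 and 10.83 in lithium. Its difference was -0.79 (SE 0.17, adjusted p = 0.0468). Control ran from 9.85 to 10.56 and overlapped ketamine, while every lithium array lay above it. The call was lost in all 7 fits that left out an array of either group, with adjusted p-values of 0.0591 to 0.212.

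Among the called falls, 3 more were in bright probes. ORB_1210718 averaged 14.43 ± 0.08 (SD, n = 3) in ketamine and 15.04 ± 0.12 (SD, n = 4) in lithium. ORB_1210075 averaged 14.25 ± 0.12 (SD, n = 3) in ketamine and 14.82 ± 0.17 (SD, n = 4) in lithium and its control arrays, averaging 14.81, overlapped lithium and lay above ketamine. ORB_1210480 averaged 15.06 ± 0.05 (SD, n = 3) in ketamine and 15.65 ± 0.26 (SD, n = 4) in lithium. A spot of it was saturated on 1 lithium array, replicate 3, and the other lithium arrays were unsaturated, so the measured difference of -0.60 is limited by that array.

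At the dim end, ORB_0511087 averaged 6.89 ± 0.11 (SD, n = 3) in ketamine and 7.47 ± 0.14 (SD, n = 4) in lithium, from background-subtracted intensities of 54.8 and 117. ORB_1112285 averaged 6.87 ± 0.06 (SD, n = 3) in ketamine and 7.17 ± 0.04 (SD, n = 4) in lithium, from 55.2 and 82.3. Both were detected on all 7 arrays, and each had 3 spots that the scanner software did not find. With the offset of 50 added in background correction, differences of such dim probes are compressed. With plain subtraction ORB_0511087 differed by -1.07 (adjusted p = 0.0552) and ORB_1112285 by -0.68 (0.0517), so both calls were lost. With not-found spots left out they were also lost, at -0.52 for ORB_0511087 (adjusted p = 0.103) and -0.15 for ORB_1112285 (0.930). These losses were not particular to dim probes: of the 20 calls, plain subtraction kept 2 and leaving out not-found spots kept 0.

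Of the other 7 falls, ORB_0511371 differed by -0.63, ORB_0511158 by -0.54, 1994 by -0.53, ORB1295 by -0.49, 3295 by -0.38, 2181 by -0.36 and 3280 by -0.35, with SE of 0.07 to 0.14. In ORB_0511371, ORB_0511158, ORB1295 and 3280 the lithium arrays overlapped control, with means of 11.80 ± 0.07 (SD, n = 3) in ketamine, 12.28 ± 0.11 (SD, n = 4) in lithium and 12.36 ± 0.08 (SD, n = 4) in control for ORB1295. Ketamine arrays overlapped control in ORB_0511158, as lithium arrays did, and in 2181, where the means were 10.24 ± 0.11 (SD, n = 3) in ketamine, 10.60 ± 0.11 (SD, n = 4) in lithium and 10.25 ± 0.07 (SD, n = 4) in control.

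The 3 rises were in probes absent from the authors' table of processed values. ORB_1112149 had 14.06, 14.37 and 14.16 in ketamine, against 13.51, 13.75, 13.53 and 13.71 in lithium, a difference of 0.57 (SE 0.11, adjusted p = 0.0429). IDT1008_1575 had 11.84, 11.86 and 11.52 in ketamine, against 11.25, 11.14, 10.92 and 11.40 in lithium, a difference of 0.56 (SE 0.12, adjusted p = 0.0468). In both, control arrays overlapped ketamine arrays: they ran from 13.80 to 14.31 for ORB_1112149 and from 11.29 to 11.68 for IDT1008_1575. For IDT1008_1575 they overlapped lithium arrays as well. ORB_0510078 had 10.62, 10.34 and 10.46 in ketamine, against 9.73, 9.97, 9.88 and 10.27 in lithium, a difference of 0.51 (SE 0.11, adjusted p = 0.0468). Its control arrays, from 9.72 to 9.88, lay below all ketamine arrays and overlapped lithium. The call of ORB_1112149 held only without lithium replicate 2 (adjusted p = 0.0456) or 4 (0.0348) among the fits that left out an array of either group.

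The set of calls as a whole was not stable when an array was left out. Such a fit also has fewer arrays to test with, and the part of this in the losses was not tested. Of the 20 probes, 2 remained called without ketamine replicate 1, 0 without ketamine replicate 2, 6 without ketamine replicate 3, 3 without lithium replicate 1, 8 without lithium replicate 2, 0 without lithium replicate 3 and 17 without lithium replicate 4. In those fits the count of all calls by limma was 2, 0, 9, 3, 12, 0 and 30 in the same order, and in the 2 fits that gave 0 calls, 277 and 280 probes had an unadjusted p under 0.05. The direction of all 20 was kept in each. Since their ketamine and lithium arrays did not overlap, leaving out an array could hardly have reversed it, so this is no support. Just inside the threshold ORB_1112285, ORB_0511371 and ORB_0511383 had an adjusted p of 0.0468. Just outside it were ORB_1112137, at -0.58 (adjusted p = 0.0516), 1141, at -0.42 (0.0525), and ORB_0511412, at 0.17 (0.0690).

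The mean of the control arrays lay between the ketamine and lithium means in 16 of the 20 called probes, against 33.2% of all tested probes, and it lay above both in 2 and below both in 2. The called probes were selected by this difference, which was 0.25 to 0.79 log2 units in size, against a median of 0.070 over all probes. A wider gap between the means is more likely to hold the control mean. The higher share among called probes therefore follows at least in part from their selection. It is a description with no test. Of the 17 probes lower in ketamine, 13 had every ketamine array below every control array and 9 had every lithium array above every control array. Both held for 6 of them, namely 1970, ORB_1112136, ORB_1210718, 1994, 3295 and ORB_1112285. For these the lithium and ketamine arrays stood on opposite sides of control. The called probes were selected for a gap between ketamine and lithium, which favours such counts. The share over all tested probes was not computed, so these counts too are a description with no test.

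Called probes differed in level from the bulk of the array. The brightest 1141 probes by mean level held 3 of the rises and 15 of the falls (1.58%), the 1140 probes below them held 2 falls (0.175%), and the dimmest 1140 held 0. Of the 747 probes in the authors' table, 9 were lower and 0 higher in ketamine (1.20%), and of the 2674 other probes 8 were lower and 3 higher (0.411%). Codes beginning with ORB gave 14 calls among 2359 probes (0.593%) and number codes 5 among 860 (0.581%), both close to the share over all probes. By place on the array, print block 3 held 6 calls among 428 probes (1.4%) and block 2 held 4 among 429 (0.932%). Block 6 held 3 among 429 (0.699%), and each other block held 1 or 2 (0.234% to 0.469%). The share over all probes was 0.585%. Median differences by block ran from -0.03 in block 4 to 0.02 in block 5. Their part in the calls was not tested beyond the alternative that centres each block, under which 43 probes were called and 18 of the 20 remained.

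**Figure D2:**
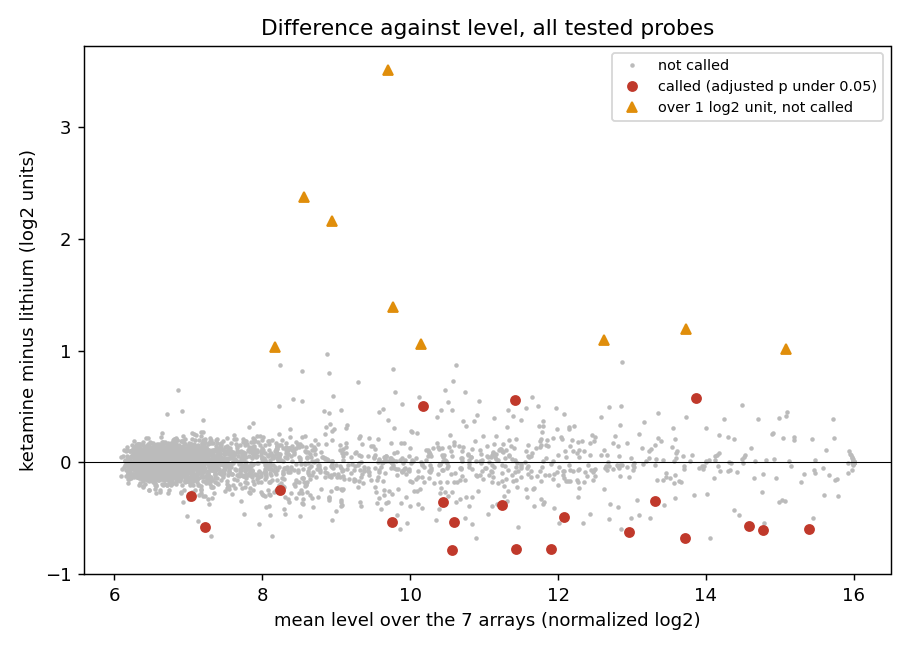
Difference between ketamine and lithium in log2 units (y axis) against mean normalized log2 level over the 7 arrays (x axis) for 3421 probes, with called probes as red circles and uncalled probes over 1 log2 unit apart as orange triangles. The called differences reach 0.79 in size, and the 9 differences over 1 are all upward and uncalled.

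The authors' deposited processed intensities, on a linear scale, included 9 of the called probes, all among the falls. In all 9 the ketamine arrays lay below the lithium arrays in these values too, which came from the same scans under another normalization. Probe 1970 read 1951, 2059 and 1916 in ketamine, against 3624, 3183, 3947 and 2844 in lithium. ORB_1112136 read 3014, 2837 and 2562 in ketamine, against 4973, 4188, 5300 and 4286 in lithium. Control means lay between, at 2577 ± 214 (SD, n = 4) for 1970 and 3749 ± 304 (SD, n = 4) for ORB_1112136. For 1970 the highest control value, 2876, was above the lowest lithium value, 2844. ORB_1210600 averaged 209 ± 12.4 (SD, n = 3) in ketamine and 253 ± 7.53 (SD, n = 4) in lithium, and 3280 averaged 8667 ± 506 (SD, n = 3) in ketamine and 11222 ± 335 (SD, n = 4) in lithium. With log2 of the authors' values in limma, 3 of the 747 probes passed the threshold, all lower in ketamine and all among the 20, and 103 had an unadjusted p under 0.05.

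**Figure D3:**
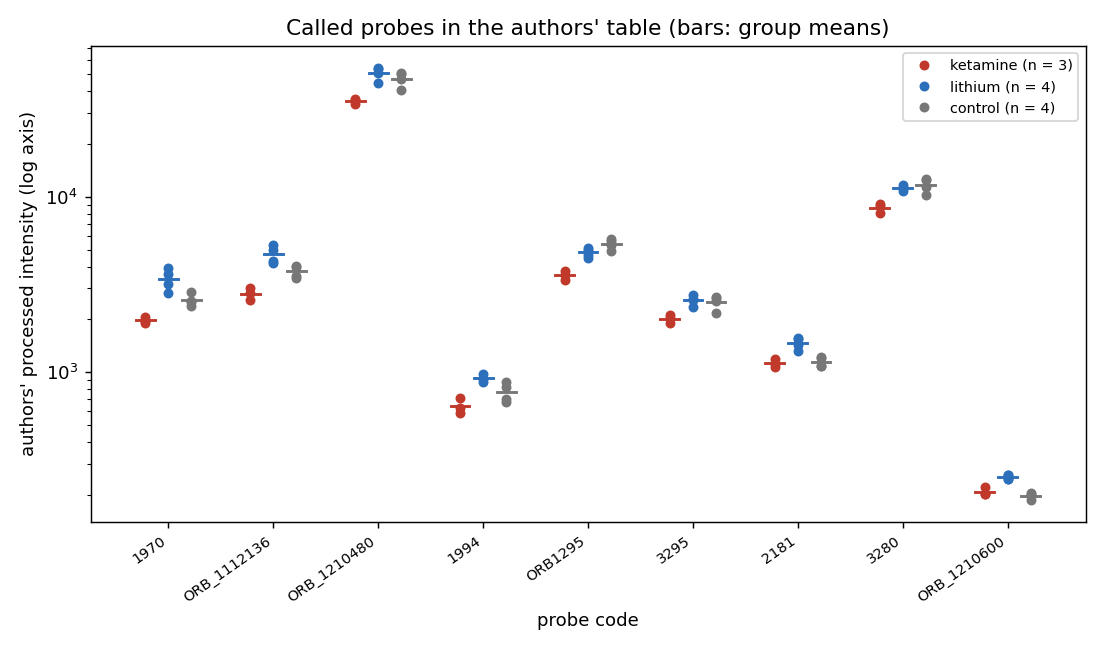
The authors' processed intensities (y axis, log scale) of the 9 called probes in their table (x axis) on each ketamine (n = 3), lithium (n = 4) and control (n = 4) array, with horizontal bars at group means. Ketamine points lie below all lithium points in each of the 9 probes.

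Larger differences were found in probes that did not pass the test. Over 1 log2 unit separated the group means of 9 probes, all higher in ketamine, and 0 of them were called. Apart from ORB_0511275, which an earlier account of these data named, they were picked after their values were seen. One of them, ORB_0511275, had 13.10, 13.45 and 13.18 in ketamine, against 12.75, 12.08, 11.71 and 12.08 in lithium. The groups did not overlap, and control was lower than either, at 10.43 to 10.89. The difference was 1.09 (SE 0.38, adjusted p = 0.267, 95% interval 0.28 to 1.90). L803mts replicate 2, the array on a slide of its own, read 13.55, while L803mts replicates 1, 3 and 4 read 11.15 to 11.87. Without that array the difference was still 1.09, the SE was 0.21 and the adjusted p was 0.0305. It passed in only this 1 of 23 alternatives, and with ketamine and lithium arrays only the adjusted p was 0.131. The median SD between spots of an array was 0.31 for this probe, against 0.04 to 0.23 over the called probes.

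The other 8 varied widely between arrays of the same treatment. IGN_orb_0408010 had the largest difference of all probes, 3.51 log2 units (SE 1.19, adjusted p = 0.237). It read 12.60, 12.64 and 9.87 in ketamine, against 7.85, 8.29, 8.65 and 7.97 in lithium. Ketamine replicates 1 and 2 were high and replicate 3 stood well below them. The same probe read 12.27, 13.07, 12.82 and 8.00 in L803mts, 12.25 to 13.50 in siGSK3b, and 13.05, 9.67, 8.07 and 8.10 in control. Control replicate 1 was thus as high as the siGSK3b arrays, and L803mts replicate 4 as low as the lithium arrays.

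Probe 2324 read 10.61, 10.69 and 8.48 in ketamine, against 7.60, 7.76, 7.64 and 7.18 in lithium, and ORB_1210710 read 10.89, 10.86 and 8.80 in ketamine, against 8.05, 8.06, 8.17 and 7.80 in lithium. ORB1046, 2990, ORB_1210454, ORB_1210015 and 1489 differed by 1.39, 1.19, 1.06, 1.03 and 1.01 log2 units. For 1489 this is a lower bound, since it was saturated on 2 of the 3 ketamine arrays and on 0 lithium arrays. In 7 of the 8 probes the same 10 arrays lay above the middle of the probe's range over the series: ketamine replicates 1 and 2, L803mts replicates 1, 2 and 3, the 4 siGSK3b arrays and control replicate 1. The remaining probe, ORB_1210454, had 9 of these. Ketamine replicate 3 was the lowest ketamine array in all 8, and the 4 lithium arrays lay in the lower part in each. The 8 probes lay in 5 print blocks, and the high and low arrays shared array positions, with control replicate 1 high and lithium replicate 1 low in position A. Whether print block or array position played a part was not tested. Within-group SDs were 0.58 to 1.59 in ketamine and 0.04 to 0.36 in lithium, and the adjusted p-values ran from 0.237 to 0.357.

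**Figure D4:**
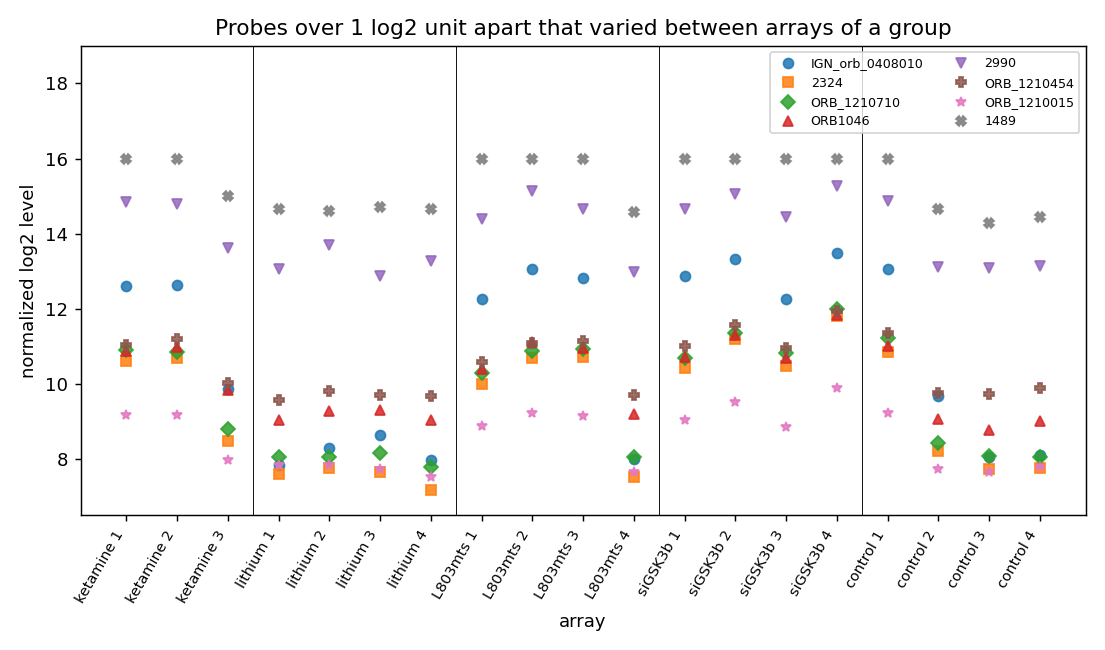
Normalized log2 level (y axis) of 8 uncalled probes over 1 log2 unit higher in ketamine than in lithium, on each of the 19 arrays (x axis, arrays of a group between vertical lines). Ketamine replicates 1 and 2 are high, ketamine replicate 3 is lower, the 4 lithium arrays are low, and control replicate 1 and L803mts replicate 4 depart from the rest of their groups.

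An earlier account of these data named 4 probes for their values against control. ORB_0511275, with the difference of 1.09 given above, is among them, and the other 3 differed less between ketamine and lithium. The number-coded probe of these had 8.17, 7.98 and 8.03 in ketamine, against 8.71, 8.56, 8.38 and 8.27 in lithium, with control at 9.54 to 10.50. The difference was -0.42 (SE 0.32, adjusted p = 0.733, 95% interval -1.10 to 0.26). ORB_1112497 had 9.71, 9.72 and 9.52 in ketamine, against 10.40, 10.29, 10.24 and 9.85 in lithium, with control at 11.16 to 11.82. Its difference was -0.54 (SE 0.40, adjusted p = 0.722, 95% interval -1.39 to 0.30). Neither passed the test, although the ketamine and lithium arrays of both did not overlap. Their SEs depended on L803mts replicate 2, which read 7.21 for the number-coded probe and 8.20 for ORB_1112497. It was the lowest L803mts array for each. Without it the differences were -0.42 (SE 0.198, adjusted p = 0.427) for the number-coded probe and -0.55 (SE 0.145, adjusted p = 0.0955) for ORB_1112497. Neither probe passed in that fit. The group means of both moved one way with slide serial number, from control over siGSK3b, L803mts (without replicate 2) and lithium to ketamine. So did those of 141 of all tested probes (4.12%) and of 0 of the 20 called probes. Both probes had been named for their values against control, the first slide of that order. The scatter between the 3 spots of an array was wide for these probes, with a median SD of 1.19 for the number-coded probe and 0.58 for ORB_1112497, against 0.04 to 0.23 over the 20 called probes. ORB_1210051 was saturated on 2 ketamine arrays and 1 lithium array. Its arrays overlapped, at 15.81 to 16.00 in ketamine and 14.76 to 15.94 in lithium, and control lay at 13.33 to 13.90. The difference of 0.39 (SE 0.28, adjusted p = 0.713) is therefore limited by saturation.

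Among the most abundant unsaturated probes of the authors' table, no difference passed the test. The called probe ORB_1210480, also in that table, was brighter, with a mean of 15.40 over both groups against 15.29 for 2021. Its saturated spot kept it out of this list. Probe 1385 averaged 15.13 ± 0.15 (SD, n = 3) in ketamine and 15.16 ± 0.06 (SD, n = 4) in lithium, with a 95% interval of the difference from -0.21 to 0.14. Probe 1455 averaged 15.13 ± 0.20 (SD, n = 3) in ketamine and 15.12 ± 0.11 (SD, n = 4) in lithium, with an interval from -0.24 to 0.26. The intervals leave room for changes up to that size. Probes 2021 and 1312 differed by -0.18 and -0.14 and ORB_0511072 by 0.20, with overlapping arrays and adjusted p-values of 0.858, 0.862 and 0.510. In probe 1143 the arrays did not overlap, at 14.76, 14.84 and 14.91 in ketamine, against 15.25, 15.14, 15.10 and 15.21 in lithium, and the difference of -0.34 (SE 0.12) had an adjusted p of 0.308.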

How the data were processed

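Per the labels, RNA came from a TRIzol extraction followed by small RNA isolation and 1-colour labelling, and each sample occupies 8 named blocks of a slide of 4 arrays. Per the file headers, the deposited intensity values are GenePix Pro foreground and local background medians at 532 nm, with no normalization. The authors' deposited table holds linear intensity values of 747 probes, and how they were normalized is not given in the sources used. Its 4778 cells with a decimal point were multiplied by 1000, after which each column correlated with its own array at 0.99996 or more, against at most -0.22 before. Its column medians were 316 to 348 over the 7 arrays, its scale and direction are known from that comparison, and centring is unknown.

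Backgrounds were corrected with normexp (offset 50) in limma 3.58.1 under R 4.3.3. Spots marked bad and the 40 control spots were left out, the 3 spots per probe averaged on the log2 scale, and arrays quantile normalized. Of 3432 probes, 3421 exceeded local background by 2 background SDs on at least 3 arrays. The SD was estimated by the scaled median absolute deviation of each array's local background medians. All 19 arrays were fitted as 5 group means with limma's empirical Bayes step; the contrast was ketamine minus lithium, two-sided, with Benjamini-Hochberg adjustment over all 3421 probes and a threshold of 0.05. The steps were tested on simulated data. The number of arrays limits precision.

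Named are all called probes, 4 probes of an earlier account, and the 6 brightest unsaturated probes of the authors' table; the probes over 1 log2 unit apart were added after their values were seen. Members and lists were chosen with earlier results of these data known. The lists of miRNAs by name, cell type markers among them, could not be applied to coded probes (0 codes matched the reference names). Same-numbered ketamine and lithium arrays share a position on the slide, but their deviations correlated at 0.14, 0.056 and -0.00087, so the numbers were not taken as pairs. Lithium replicate 4 lay in position D, where ketamine had no array. Whether this imbalance of position played a part was not tested.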

Additional observations from a re-analysis of the deposited data

Results flagged for a closer look

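In groups of 4 arrays, an array was singled out when its gap to the nearest of the others exceeded Dixon's critical share of the group's range. Of 70 such checks on lithium and control arrays, for the named probes and 5 array measures, 7 were found. Chance alone gives about 1 in 20, or 3.5 here, and the checks share arrays. In lithium, replicate 1 had 7.26 for ORB_0511087, below the 7.51 to 7.56 of the other lithium arrays. Its median SD between the spots of a probe was 0.146, above the 0.138 to 0.140 of the others. In control, replicate 1 had 12.89 for ORB_0511371 (others 13.31 to 13.40), 11.15 for 3295 (others 11.30 to 11.32), 14.76 for 2021 (others 15.59 to 15.67) and 14.67 for 1312 (others 15.27 to 15.35). Its median SD between spots was 0.151, above the 0.136 to 0.138 of the other control arrays. Control replicate 1 thus accounts for 5 of the 7, and it is also the control array that was high in the 8 uncalled probes with large differences. Groups of 3 arrays, such as ketamine, were not checked.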

How the results depend on the processing

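The 20 called probes kept their direction in all 469 values under 24 alternatives, and 201 of those values passed the threshold. The probes were chosen by this difference and their groups did not overlap, so the kept direction is no support. The count of calls moved more. It was 2 with median scaling, 2 with plain background subtraction, 12 with no background correction, 1 with ketamine and lithium arrays only, 37 without L803mts replicate 2, 41 with array weights, 43 with print block medians centred, 0 with not-found spots left out (172 unadjusted, 2625 probes tested) and 3 in the authors' table (747 probes tested). It stayed within 1.5 times with cyclic loess (19), no filter (20), detection on all 7 arrays (22), trend and robust moderation (25) and the median of spots (15). The probes called were not all the same. Of the 20, cyclic loess kept 16, trend and robust moderation 15 and the median of spots 12. No filter and detection on all 7 arrays each kept 20, and median scaling kept 1. Leaving out an array of either group gave 0 to 30. With replicate number as a block the count was 0 in the 7 arrays (442 unadjusted) and, in an alternative chosen after seeing the data, 7 over all 5 groups. Fitting the 7 arrays after normalizing all, likewise added, gave 1. That probe and the one called with the 7 arrays normalized alone were not among the 20 (0 shared). Uncalled probe 1455 turned to -0.15 with median scaling, -0.064 with cyclic loess, -0.011 with array weights, -0.0018 with the replicate block and negative without ketamine replicate 3 or lithium replicate 1 or 3, within a leave-out range of -0.10 to 0.099. Uncalled 1312 turned positive without ketamine replicate 1 (range -0.28 to 0.013) and 1385 without ketamine replicate 2 (range -0.079 to 0.049). ORB_1112136 passed in 17 of 24 alternatives (adjusted p = 0.00116 to 0.218) and ORB_0511306 in 16 of 23 (0.00130 to 0.297). The causes were not tested.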
